A study of Mus musculus with 6 samples.

Results

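Vehicle-treated and 12 h TGFβ-treated NMuMG cells were compared through their lists of accessible regions. A region was called shared when a vehicle region and a 12 h region overlapped by 1 bp or more, 12 h-only when no vehicle region overlapped it, and vehicle-only when no 12 h region overlapped it. Together both lists covered 34407 separate regions, out of 39435 over the 3 lists of the series, and they came from 4 of its 6 samples. NMuMG cells are epithelial, were established from the mammary gland of a normal mouse, and turn mesenchymal in culture when they receive TGFβ. Serum and insulin were withdrawn from all groups 6 h before treatment. Control cells were given vehicle and taken at 2 h, and treated cells were given TGFβ1 (5 ng/ml) and taken at 12 h. Treatment and time without serum therefore cannot be told apart in this comparison. Accessibility was measured by ATAC-seq, in which the transposase Tn5 inserts sequencing adapters into DNA that nucleosomes leave free. Each condition had 2 biological replicates, which the authors had joined in 1 list. The lists give no spread between replicates and no read counts, so no test between conditions was run and the number of reads behind a region is unknown. By the library totals in the study's reporting summary, which were not analysed here, the 12 h libraries kept fewer mapped and filtered reads than the vehicle libraries. The intervals printed here are 95% Wilson intervals and cover counting error only.

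TGFβ binds a pair of receptor kinases at the cell surface. They phosphorylate Smad2 and Smad3, which enter the nucleus with Smad4 and bind DNA together with other factors. AP-1, a dimer of Jun, Fos and related proteins, is one of these partners and binds the letters TGACTCA. The program that follows in epithelial cells, the epithelial-mesenchymal transition, loosens the junctions between cells, and strengthens their contacts with the matrix and their actin cables. Accessible DNA away from genes often marks enhancers, and accessible DNA at a start site marks a promoter that factors can reach.

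The vehicle list held 18337 peaks of 150 bp or more in 16765 regions and the 12 h list held 36153 in 33079 regions, 1.97 times as many. Of the 12 h regions, 17827 were 12 h-only (53.9%). Of the vehicle regions, 1442 were vehicle-only (8.60%, interval 8.19 to 9.04%). There were thus 12.4 12 h-only regions for each vehicle-only region. The 12 h-only regions covered 9.21 Mb and the vehicle-only regions 0.589 Mb. The share of 12 h regions that were 12 h-only ran from 47.5 to 62.1% over the chromosomes. The length of the 12 h list moved with these counts. With the 12 h list shortened to its 18337 widest peaks, as many as the vehicle list holds, 5965 regions were 12 h-only and 4754 were vehicle-only. The ratio of 12 h-only to vehicle-only regions was then 1.25 to 1. With equal numbers of peaks, both lists must leave similar counts on either side, so this ratio cannot size the excess.

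The stretches below show AP-1 letters within 12 h-only regions near genes of the TGFβ response, and were chosen for holding them. Each is the forward strand of mm9, taken from a 12 h-only region within an intron of the gene it is named for, with the AP-1 letters or their reverse complement in capitals and 25 bases on either side.
Smad3, chr9:63594058-63594114: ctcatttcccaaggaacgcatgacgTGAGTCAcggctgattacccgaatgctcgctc
Ltbp1, chr17:75599147-75599203: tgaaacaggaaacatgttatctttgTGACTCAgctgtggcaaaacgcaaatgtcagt
Itgb3, chr11:104479958-104480014: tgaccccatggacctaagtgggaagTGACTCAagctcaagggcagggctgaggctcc
Ets1, chr9:32516280-32516336: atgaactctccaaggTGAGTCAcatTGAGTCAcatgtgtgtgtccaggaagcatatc
Tpm1, chr9:66893297-66893353: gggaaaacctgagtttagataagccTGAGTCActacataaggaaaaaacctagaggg
Cdh1, chr8:109143684-109143740: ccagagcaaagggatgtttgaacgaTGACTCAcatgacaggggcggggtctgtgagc
AP-1 letters were in 4 of 6 12 h-only regions assigned to Smad3, 6 of 12 to Ltbp1, 3 of 6 to Itgb3, 3 of 6 to Ets1, 4 of 7 to Tpm1 and 1 of 2 to Cdh1. Counted over whole regions, 54.1% of all 12 h-only regions away from start sites held them. The counts lie around that share and do not set these genes apart. The genes span the response. Smad3 carries the signal, Ltbp1 holds latent TGFβ in the matrix, Itgb3 is a subunit of a matrix receptor, Ets1 is a transcription factor, Tpm1 is an actin-binding tropomyosin, and Cdh1 is E-cadherin, the main adhesion protein of epithelial cells.

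A rarer match is the palindrome GTCTAGAC, which binds Smad3 and Smad4. The 3 stretches below, from 12 h-only regions in introns, carry it in capitals.
Pmepa1, chr2:173083634-173083691: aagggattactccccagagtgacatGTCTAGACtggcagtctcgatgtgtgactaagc
Palld, chr8:64176941-64176998: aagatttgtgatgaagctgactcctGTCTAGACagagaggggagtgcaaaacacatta
Aff1, chr5:104210282-104210339: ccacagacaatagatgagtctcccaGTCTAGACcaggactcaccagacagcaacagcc
Pmepa1 is an inhibitor that TGFβ itself induces, Palld encodes palladin of the actin cables, and Aff1 is a member of elongation complexes. The region in Aff1 was 3078 bp wide, made of 3 peaks, and also held 1 AP-1 match.

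From vehicle-only regions, 2 stretches are shown with HNF1 letters, GTTAATNAT or their reverse complement, in capitals, and 1 with the more frequent AP-1 letters. Away from start sites 4.55% of vehicle-only regions held the former and 21.9% the latter. HNF1 factors are homeodomain proteins of epithelial organs such as kidney, liver and gut.
Krt19, chr11:100021224-100021282: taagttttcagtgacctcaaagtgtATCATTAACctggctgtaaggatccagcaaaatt
Snap25, chr2:136496464-136496522: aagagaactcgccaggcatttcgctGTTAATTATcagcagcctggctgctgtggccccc
Ehf, chr2:103165746-103165802: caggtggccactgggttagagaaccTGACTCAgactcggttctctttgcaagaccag
The first lies 13325 bp from a start site of Krt19, a keratin of simple epithelia, in a region that also holds 1 AP-1 match. The second lies 42516 bp from a start site of Snap25 and the last 21768 bp from one of Ehf, an epithelial ETS factor, all between genes.

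Regions of the 3 classes lay at different features. Shared regions sat mostly at promoters. In 57.6% of them (8781 of 15252) the region came within 1000 bp of an annotated transcript start, against 11.3% of the 12 h-only regions (2012 of 17827) and 11.7% of the vehicle-only regions (168 of 1442). The intervals of the latter classes, 10.8 to 11.8% and 10.1 to 13.4%, overlap. By the feature at the midpoint, 40.5% of the 12 h-only regions were in introns and 46.8% between genes, and the vehicle-only regions divided alike, with 39.0% and 47.4%. Of the bases of the genome 4.15% were within 1000 bp of a start site, 35.8% in introns and 57.7% between genes. Coding exons held 0.387% of the shared, 0.696% of the 12 h-only and 1.11% of the vehicle-only midpoints.

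**Figure D1:**
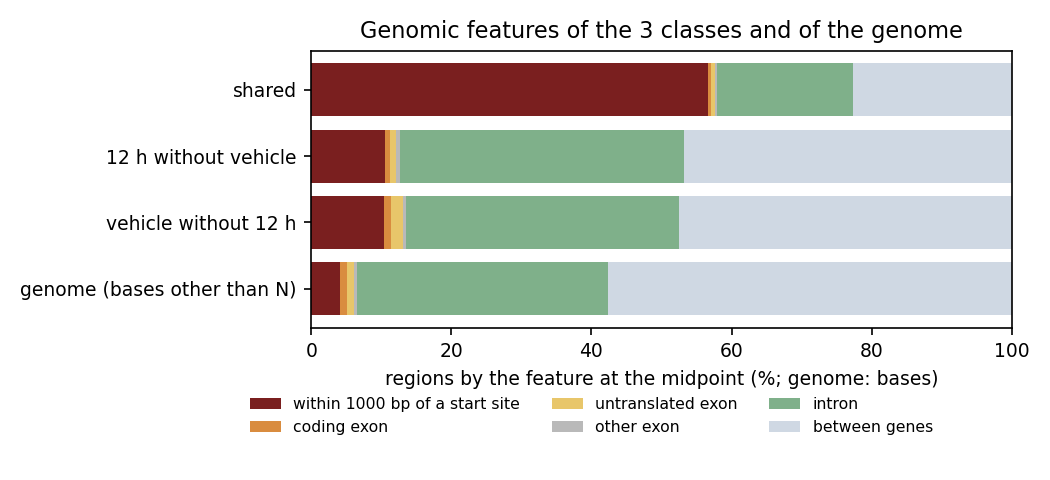
Share of regions (x axis, percent) by the genomic feature at the region's midpoint for the 3 classes, and share of bases for the genome, which had no replicates or errors to draw. Start sites take 56.7% of the shared regions, 10.5% of the 12 h-only and 10.3% of the vehicle-only regions.

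Regions at promoters were shared more than regions elsewhere, seen from either list. Of the vehicle regions at start sites 98.1% (8757 of 8925) had a 12 h region, and of those elsewhere 83.8% (6566 of 7840). Of the 12 h regions at start sites 81.4% had a vehicle region (8781 of 10793), and of those elsewhere 29.0% (6471 of 22286). Away from start sites, the median distance to the nearest start of a protein-coding transcript was 32584 bp for 12 h-only, 25139 bp for shared and 20830 bp for vehicle-only regions. A share of 21.5% of the 12 h-only regions away from start sites lay more than 100 kb from such a start, against 12.5% of the vehicle-only regions. The median distance of the 12 h-only regions from the nearest vehicle region was 29875 bp. Of all 12 h-only regions, 21.1% lay 100 kb or more from any vehicle region and 0.505% lay within 1000 bp. Along the 12 h list, the 17827 regions formed 7381 runs with no shared region between them, the longest of 20 regions, and 34.9% of the regions were in runs of 5 or more. Distances and runs for regions placed at random were not computed.

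Among ligands and receptors of the pathway, the start sites of 9 of 13 genes were in both lists and those of Tgfb1 and Bmpr1a were in the 12 h list alone. Over all 22342 protein-coding genes, 6.10% had start sites in the 12 h list alone, 0.389% only in the vehicle list, and 47.1% in the 12 h list. Tgfb1 encodes the ligand that was added to the cells, and its 12 h region of 834 bp spans the start site at chr7:26471728-26472561. Bmpr1a, a receptor for bone morphogenetic proteins, had a 12 h region of 1405 bp. Start sites of both TGFβ receptors were in both lists, with widths of 1121 bp in vehicle and 1027 bp at 12 h for Tgfbr1, and of 1257 bp and 1691 bp for Tgfbr2. At 9 of the 13 genes there was 1 or more 12 h-only region away from the start sites whose nearest protein-coding start within 100 kb was the gene's, against 30.1% of all genes. Such counts move with gene length. The genes of this list have a median length of 82.8 kb against 15.4 kb over all genes, and 57.6% of all genes of 100 kb or more had such a region, against 18.4% of those under 10 kb. A vehicle-only region assigned in this way was found at 4.57% of all genes and at 0 of these 13.

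The signal carriers follow. Of 8 Smads and partners, 6 had start sites in both lists. Zfyve9, which encodes an anchor that brings Smads to the receptor, was in the 12 h list alone, and Foxh1 in neither. Smad3 had 6 12 h-only and 5 shared regions assigned to it, and 4 of the 6 held AP-1 letters. The Smad3 stretch above comes from an intronic region of 613 bp with 2 matches, and a region of 1058 bp placed 80852 bp upstream also held 2. Smad1 and Smad5, carriers of the bone morphogenetic protein branch, had 5 12 h-only regions each, and Smad2 had 1. Over the 8 genes there were 23 12 h-only regions, 6 shared and 2 vehicle-only, so that 79.3% of the 12 h regions assigned were 12 h-only. Over all protein-coding genes that share was 69.2%. It was lower for ligands and receptors (57.1%), feedback inhibitors (54.3%), AP-1 genes (58.6%) and classic targets (66.7%). Among lists described below, it was 80.0% for mesenchymal and matrix genes, 74.4% for transition factors and 72.1% for integrins and focal adhesion genes. For actin genes it was 66.7%, for identity regulators 58.8% and for junction genes 56.5%. The median length of the Smads and partners was 62.6 kb.

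The feedback inhibitors had start sites in both lists in 9 of 9 genes with a model in the annotation. Ldlrad4 had no model under this symbol. The widest region at the start sites was wider at 12 h in all 9, against 84.8% of all 9168 genes with start sites in both lists. In all gene lists here, such widths are taken from each list separately, so both values of a gene need not lie at the same start. The widest region at the start sites of Pmepa1 measured 350 bp in vehicle and 2043 bp at 12 h, that of Smurf1, a ubiquitin ligase that degrades Smads and receptors, 714 bp and 2623 bp, and that of Tgif1, a repressor that binds Smad2, 560 bp and 2530 bp. Smad7, which blocks the receptor, had 1019 bp and 1504 bp and 4 12 h-only regions. Those of Smad6 differed little, with 1485 bp and 1508 bp. Widths include merged neighbours: the Pmepa1 region at 12 h joined 2 peaks. Over the list the median difference was 485 bp, and over all genes in both lists 189 bp.

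Classic targets had start sites in both lists in 13 of 15 genes, none in the 12 h list alone, and Tgfbi and Ltbp2 in neither. At 13 genes there was 1 or more 12 h-only region, against 30.1% of all genes. There were 40 such regions in all, beside 20 shared and 4 vehicle-only. Ltbp1 had the most, 12, of which 11 were in introns, with AP-1 matches in 6 of the 12. The widest region at its start sites measured 479 bp in vehicle and 1530 bp at 12 h, but the 1530 bp region lies at the upstream start of the gene, where no vehicle region overlapped it. Ctgf and Cyr61, matricellular proteins of wound repair, had 4 12 h-only regions each. At Cdkn1a, the inhibitor of the cell cycle, the widest region at the start sites was 369 bp in vehicle and 2364 bp at 12 h. Klf10 had a narrower one at 12 h, 846 bp against 981 bp.

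AP-1 genes were accessible in vehicle too. Start sites of 11 of 13 family members were in both lists, none was in the 12 h list alone, and Batf and Batf3 were in neither. Junb had the widest region of the family at its start sites in both lists, 2865 bp in vehicle and 3660 bp at 12 h. Fos measured 793 bp and 2315 bp and had 5 12 h-only regions, and Jun measured 2060 bp and 2096 bp and had 4. The median difference over the 11 genes was 49 bp, below that of all genes.

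For the transcription factors of the transition, 15 gene models carried the 14 symbols, since Sox4 stands for 2 models. Of the 15, 10 had start sites in both lists, Twist2 in the 12 h list alone and 4 in neither, among them Twist1 and Prrx1. The Twist2 region at 12 h was 570 bp wide. Snai1, Snai2, Zeb1 and Zeb2, repressors of E-cadherin, were in both lists, with widths of 499 bp and 1714 bp for Zeb1, 671 bp and 1342 bp for Zeb2, and 992 bp and 760 bp for Snai2. At 13 of the 15 models there was a 12 h-only region, against 30.1% of all genes. Ets1 had 6, and the widest of them, chr9:32515946-32518875, was 2930 bp of 4 merged peaks inside the gene, with 2 AP-1 matches 3 bases apart in the Ets1 stretch above.

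Of the mesenchymal and matrix genes, 4 of 21 had start sites in the 12 h list alone, against 6.10% of all genes. They were Col4a1, Col5a1, Mmp14 and Sparc. The first and second encode collagens of basement membrane and of fibrils, Mmp14 a membrane protease that cuts collagen, and Sparc a collagen-binding protein. Their 12 h regions were 826, 848, 263 and 615 bp wide. A further 8 were in both lists, with Vim, the filament protein of mesenchymal cells, at 1270 bp in vehicle and 1819 bp at 12 h and Fn1, fibronectin, at 1269 bp and 1228 bp. The other 9, Acta2 and Tnc among them, were in neither. Cdh2, N-cadherin, was in both lists (1634 bp and 1821 bp) and had 7 12 h-only regions, no shared region away from start sites and no vehicle-only region. Tnc, tenascin C, had 6 and Lox, the enzyme that crosslinks collagen, had 4, although no region touched the start sites of either gene in any list compared.

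Integrins and focal adhesion genes had 44 12 h-only regions over 15 genes, 2.93 per gene, against 0.555 per gene over all protein-coding genes. Their genes are also longer, with a median of 62.4 kb against 15.4 kb. Over all genes the mean was 0.287 for those under 10 kb, 0.742 for those of 30 to 100 kb and 1.50 for those above. Itgb3 and Itgb4 had start sites in the 12 h list alone, 11 genes in both lists, and Itgb6 and Itgb8 in neither. At Itgb3, whose product pairs with the αv subunit, 7 regions lay in 33.4 kb around and after the start site, all of them 12 h-only, from chr11:104469128-104469796 at the start site to chr11:104502281-104502534. One of them was 2066 bp wide, made of 3 peaks with 2 AP-1 matches, and the Itgb3 stretch above comes from it. Vcl, vinculin, had 6 12 h-only regions and Itga2 5.

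Actin and stress fibre genes had start sites in both lists in 11 of 14. By the widest region at the start sites in each list, all 11 were wider at 12 h, against 84.8% over all genes. In other lists the counts ran from 5 of 8 junction genes to 9 of 9 feedback inhibitors. Between these lay 7 of 11 integrin and focal adhesion genes, 8 of 11 AP-1 genes and 9 of 10 transition factors. Tpm4 measured 737 bp in vehicle and 2100 bp at 12 h, Pdlim7 407 bp and 1352 bp, and Myh9 1002 bp and 1727 bp. Tpm1 had 7 12 h-only regions, Pdlim5 6 and Cald1 5. Myl9, Cnn1 and Cnn2 had start sites in neither list.

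**Figure D2:**
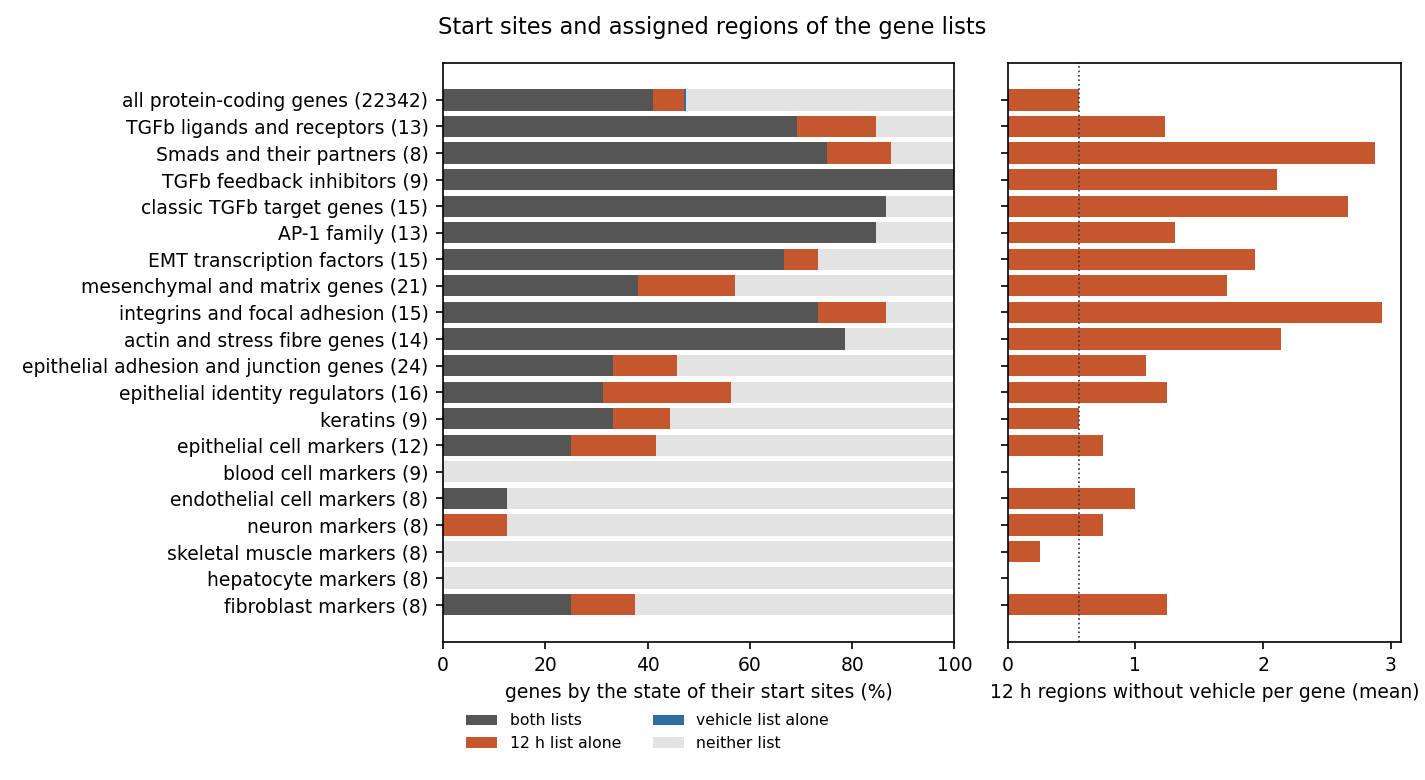
Left, share of the genes of each list (number of genes in parentheses) whose start sites were in both lists, in the 12 h list alone, in the vehicle list alone or in neither (x axis, percent); right, mean number of assigned 12 h-only regions per gene, with the mean over all protein-coding genes as a dotted line. The lists from ligands to actin genes reach 1.23 to 2.93 regions per gene against 0.555 over all genes, and the fibroblast markers and identity regulators reach 1.25; the lists differ in gene length, and each list is 1 value per condition, with no error to draw.

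Epithelial genes were also found in the 12 h list alone, as were 6.10% of all genes. Start sites of 45.8% of the adhesion and junction genes and 56.25% of the identity regulators were in the 12 h list, against 47.1% of all genes. Of 24 adhesion and junction genes, 8 had start sites in both lists, 13 in neither, and Cdh1, Cldn4 and Pkp1 in the 12 h list alone; none was in the vehicle list alone. Desmoplakin, Dsp, measured 579 bp in vehicle and 2850 bp at 12 h. Of 16 regulators of epithelial identity, 5 were in both lists, and 4 were in the 12 h list alone, among them Ehf, Elf5 and Foxa1. The Foxa1 region was 1696 bp wide and that of Elf5 820 bp. Among keratins Krt8, Krt18 and Krt19 were in both lists and Krt80 in the 12 h list alone. Vehicle-only regions were assigned to 5 of the 16 identity regulators, against 4.57% of all genes, and 12 h-only regions to 11 of the 16, against 30.1%. Other lists also held genes with vehicle-only regions: 4 of 15 classic targets, 2 of 8 Smads and partners and 3 of 14 actin genes. None of the 13 AP-1 genes or of the 13 ligands and receptors had one. The identity regulators have a median length of 32.4 kb, against 15.4 kb over all genes. Ehf had 2 vehicle-only, 3 12 h-only and 4 shared regions. Elf3, Grhl2 and Trp63 had 1 vehicle-only region each.

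The stretches upstream of start sites in the 12 h list alone are shown for Cdh1, Cldn4 and Elf5, as epithelial genes whose regions hold letters of AP-1 or of the repressors that act in the transition. Each gives 200 bases up to the base before the start, in the direction of transcription, on mm9. Capitals mark the AP-1 letters and CAGGTG, the E-box bound by Snail and Zeb repressors, on either strand.
Cdh1, chr8:109127051-109127250: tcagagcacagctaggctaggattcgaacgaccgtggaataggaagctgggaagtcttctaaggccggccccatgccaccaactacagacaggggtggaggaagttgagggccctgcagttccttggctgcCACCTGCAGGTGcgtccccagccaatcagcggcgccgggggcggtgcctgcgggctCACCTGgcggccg
Cldn4, chr5:135422805-135423004: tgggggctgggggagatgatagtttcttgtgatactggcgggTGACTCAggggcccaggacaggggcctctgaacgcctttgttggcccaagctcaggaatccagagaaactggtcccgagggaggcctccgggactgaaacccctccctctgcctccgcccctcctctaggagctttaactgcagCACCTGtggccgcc
Elf5, chr2:103251645-103251844: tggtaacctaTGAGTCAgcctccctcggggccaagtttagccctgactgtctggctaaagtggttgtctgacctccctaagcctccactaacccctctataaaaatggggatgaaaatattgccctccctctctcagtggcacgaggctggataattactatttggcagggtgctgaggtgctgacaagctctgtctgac
The Cdh1 stretch holds 3 E-box matches and no AP-1 match, and lies on the forward strand. Over 45940 protein-coding start sites, 14.1% of stretches of 200 bases held the E-box letters, 0.181% held 3 or more, and 3.05% held the AP-1 letters. Since the genes shown were chosen for such letters, these shares cannot tell how unusual their stretches are. Cldn4, a claudin of tight junctions, holds 1 of each and lies on the reverse strand. Elf5, a factor of the mammary alveolar lineage on the forward strand, holds 1 AP-1 match. The region at Cdh1 was 431 bp wide, narrower than the median of 669 bp over the 1363 genes with start sites in the 12 h list alone. Of the 21 genes with start sites in the 12 h list alone that the rule for named genes picked, 13 stayed so in the 12 h list shortened to peaks of 548 bp or more. Cdh1, Cldn4, Col6a3, Ehf, Itgb4, Mmp14, Snap25 and Zmiz1 were then in neither list.

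Markers of NMuMG's own lineage were only partly accessible at their start sites. Of 12 epithelial markers, Krt8, Krt18 and Krt19 were in both lists, Cdh1 and Cldn4 in the 12 h list alone, and 7, among them Epcam and Grhl2, in neither. Start sites of most markers of other cell types were in neither list. Start sites of 0 of 9 blood, 0 of 8 skeletal muscle and 0 of 8 hepatocyte genes were in either list, while Esam was the 1 endothelial gene of 8 in both and Snap25 the 1 neuronal gene of 8 in the 12 h list alone. Fibroblast markers Col1a1 and Pdgfra were in both lists and Col6a3 was in the 12 h list alone, with 5 remaining in neither. The regions of Col6a3 and Snap25 covered no protein-coding start. Each lay within 1000 bp of one, which for Col6a3 is a start inside the gene. Assigned 12 h-only regions were nevertheless found at 5 of 8 neuron, 4 of 8 endothelial and 4 of 8 fibroblast genes, shares close to those of the AP-1 (7 of 13) and actin (8 of 14) lists. They were found at 2 of 8 muscle, 0 of 9 blood and 0 of 8 hepatocyte genes, and at 30.1% of all genes. Of 1113 olfactory receptor genes 5 were only in the 12 h list and 2 only in the vehicle list, and of 79 ribosomal protein genes 70 were in both.

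Over all protein-coding genes, Pde4d, a phosphodiesterase, had the most 12 h-only regions, 21, beside 8 shared. It was followed by Palld with 16, Kirrel3 and Lpp with 14, 2010111I01Rik and Nckap5 with 13, Ltbp1, Mbnl1 and Zmiz1 with 12, and Ank3 with 11. Lpp is a protein of focal adhesions and Mbnl1 a splicing factor. Zmiz1 alone of the 10 had its start sites in the 12 h list alone. Kirrel3 had its start sites in neither list. Genes with the most vehicle-only regions were Tmem181b-ps with 4 and Agps, Cebpb, Ephx1 and Gm14374 with 3 each. Cebpb, a factor of inflammation and of mammary development, also had 6 12 h-only regions and no shared region away from start sites.

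The 12 h-only regions were narrow. Their median width was 452 bp, against 854 bp for shared regions in the 12 h list and 344 bp for vehicle-only regions. At start sites the medians were 585, 988 and 354.5 bp, and elsewhere 440, 658 and 342.5 bp. A width under 300 bp was found in 22.5% of the 12 h-only, 3.58% of the shared and 39.5% of the vehicle-only regions. The widest 12 h-only regions at start sites were those of Rnf122 (3095 bp), Rai1 (2932 bp) and Enthd1 (2885 bp), then 1 of 2843 bp at a start that is not protein-coding, and Bag2 (2687 bp). Away from start sites they lay in introns of Mbnl2 (3306 bp), Aff1 (3078 bp), Cdkal1 (3000 bp) and Ets1 (2930 bp), and 1807 bp from C630050I24Rik (2645 bp). Of these 10 regions 9 held an AP-1 match anywhere in their width, and the Mbnl2 region held 4. Other DNA of such lengths was not searched, so the part of width in this count was not tested. In the fixed window around the midpoint used below, 29.2% of 12 h-only regions of 1000 bp or more away from start sites held a match. At widths from 600 up to 1000 bp the share was 58.3%.

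**Figure D3:**
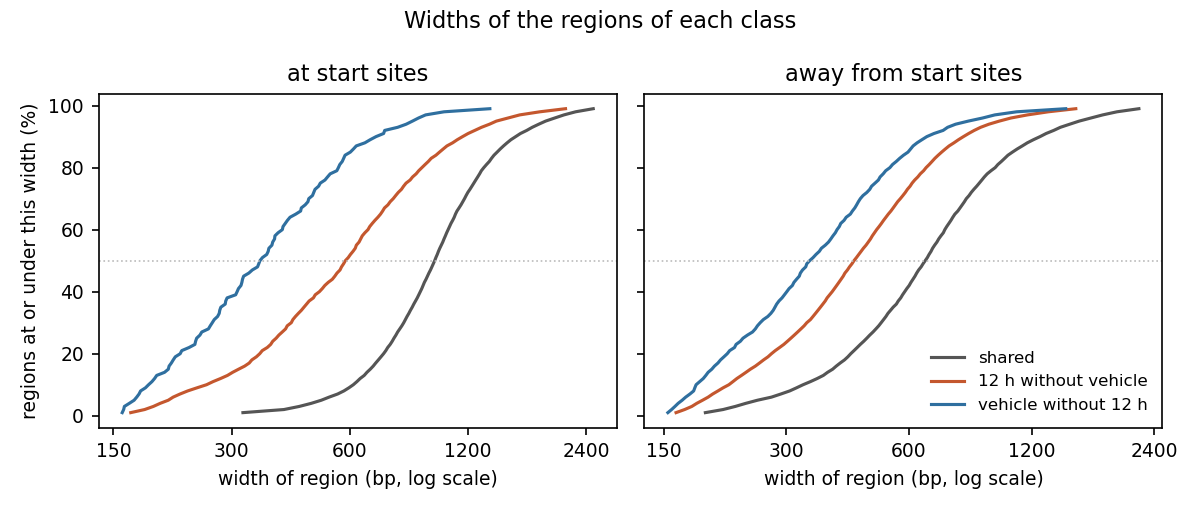
Cumulative share of regions (y axis, percent) by width (x axis, bp, log scale), at start sites on the left and elsewhere on the right, from the 1st to the 99th percentile of each class; the dotted line marks 50%. The 12 h-only curve runs between the vehicle-only and the shared curve in both panels, with medians of 585 and 440 bp.

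Where a vehicle region matched a single 12 h region and the reverse, 15163 pairs, the widths could be compared at the same place. The 12 h region was at least double the vehicle region in 2825 pairs (18.6%) and the reverse held in 84 pairs. The vehicle region lay wholly inside the 12 h region in 64.5%. The share of pairs at least double was 22.1% away from start sites and 16.0% at them. Among pairs with 1 peak in each list, where merging played no part, it was 15.3%, and the median difference was 161 bp. The pairs in which the 12 h region was wider by most lay at Mef2d (986 bp and 4524 bp), Kdm6b (317 bp and 3635 bp) and Arid1b (496 bp and 3671 bp), each 1 peak in vehicle and 3 or 4 at 12 h. Kdm6b removes a repressive histone mark, and Arid1b is a subunit of a chromatin remodeler. Those in which it was narrower by most were at Itln1 (3953 bp and 506 bp), near Gm15698 (2744 bp and 1076 bp) and at 1110032A04Rik (2313 bp and 673 bp).

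Vehicle-only regions stood low in the vehicle list. The vehicle list gives each peak a score of unstated scale with a ceiling of 1000. The median was 691 for vehicle-only regions and 1000 for those with a 12 h region, and 8.60% of the former and 56.2% of the latter were at the ceiling. Of regions scored under 600, 30.1% (332 of 1102) had no 12 h region, and of those at 1000 1.42% (124 of 8736). The share was higher away from start sites at each score, with 34.9% against 15.9% under 600 and 4.42% against 0.147% at 1000. Width gave the same order: 23.7% of vehicle regions under 250 bp and 1.49% of those of 1000 bp or more were vehicle-only. A vehicle-only region lay a median of 9742 bp from the nearest 12 h region.

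**Figure D4:**
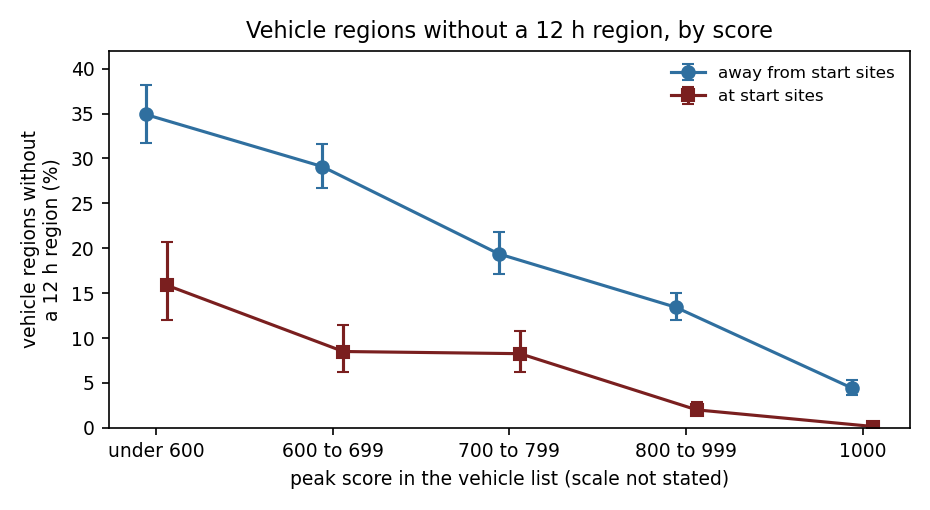
Share of vehicle regions without a 12 h region (y axis, percent) by peak score (x axis), away from start sites (circles) and at them (squares), with 95% Wilson intervals as bars, which cover counting error only. The share runs from 34.9% down to 4.42% away from start sites and from 15.9% down to 0.147% at them.

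The widest vehicle-only regions were 3294 bp wide, 75638 bp from Haus8, and 2517 and 2364 bp wide at Dynlt1a and Tmem181b-ps, which lie close together on chromosome 17. The remaining ones were 2155 bp wide, 142931 bp from Slc22a12, and 2022 bp wide, 16438 bp from Raet1d. Start sites of 87 genes were in the vehicle list alone, with a median width of 382 bp. A start site counts as such by its own 1000 bp, and the region there may reach a 12 h region further on, as at Gm9765.

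AP-1 letters were common in 12 h-only and shared regions and less so in vehicle-only regions. In windows of 500 bp around the midpoint, away from start sites, 51.2% of the 12 h-only and 49.3% of the shared regions held the AP-1 letters on either strand, against 21.9% of the vehicle-only regions. With the 12 h list shortened to its 18337 widest peaks, the vehicle-only share was 37.2%. In windows of the same size 5 kb to either side the shares were 8.01, 7.85 and 8.62%. The 12 h-only and the vehicle-only shares also differed within classes of width. At widths from 150 up to 250 bp they were 33.6% against 17.2%. From 600 up to 1000 bp they were 58.3% against 18.3%. In matched pairs the 12 h region was wider in 83.6%, so equal width need not mean equal signal in both lists. AP-1 shares by peak score were not computed, and the part of peak strength in this contrast was not tested. The matches were centred. The 12 h-only regions held 20.6 and 21.3 matches per 100 regions in the 100 bp before and after the midpoint, and vehicle-only regions 6.04 and 7.69.

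**Figure D5:**
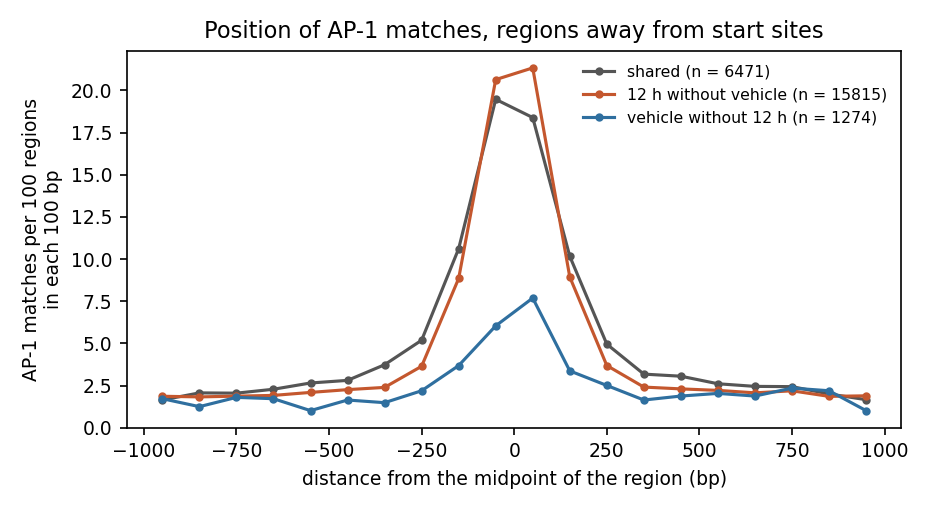
Number of AP-1 matches per 100 regions in each 100 bp (y axis) by distance from the midpoint of the region (x axis, bp), away from start sites, for shared, 12 h-only and vehicle-only regions. The 12 h-only and shared curves peak at 21.3 and 19.5 and the vehicle-only curve at 7.69 next to the midpoint; the lists give no replicate values, so no error is drawn.

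Other letters were rarer. HNF1 letters were in 4.55% of the vehicle-only regions away from start sites (58 of 1274, flanks 0.701%), 3.26% of the shared (flanks 1.26%) and 2.14% of the 12 h-only regions (flanks 1.51%). The Smad palindrome was in 1.28% of the 12 h-only (202 of 15815, flanks 0.386%), 0.680% of the shared (flanks 0.465%) and 0.314% of the vehicle-only regions (flanks 0.495%). TEAD letters, ACATTCC, were in 12.0, 11.2 and 10.2% of 12 h-only, shared and vehicle-only regions (flanks 7.16, 6.90 and 6.64%), and RUNX letters, TGTGGTT, in 18.7, 18.2 and 17.1% (flanks 12.2, 12.4 and 12.5%), so that their intervals overlap between vehicle-only and shared regions. CTCF letters, CACTAGNGG, were in 2.21, 2.24 and 3.30% (flanks 0.949, 0.914 and 0.784%). The letters of Grainyhead-like factors, AACNNGTT, were in 7.73, 6.57 and 7.69%, with flanks at 7.57, 7.39 and 7.88%. The E-box of Snail and Zeb was also near its flanks, in 28.6, 31.2 and 35.2% of regions with flanks at 29.2, 32.0 and 32.5%. GC content differed between these classes, with medians of 45.8, 48.2 and 47.4%, and its part in the shares was not tested.

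At start sites the shares of 12 h-only and shared regions lay further apart. AP-1 letters were in 23.1% (464 of 2012) of them and in 6.96% (611 of 8781) of the shared regions, with flanks at 7.92 and 8.23%. Letters of KLF and SP factors, GGGGCGGGG, were in 15.3 and 26.9%, and ETS letters, CCGGAAGT, in 3.63 and 9.98%. The E-box was in 34.3% of the 12 h-only regions there, with flanks at 34.5%. The median GC content was 57.0 and 65.4%, and the median number of CpG in the window was 20 and 43. The 168 vehicle-only regions at start sites had a median GC content of 51.9% and 9 CpG, AP-1 letters in 10.7% and KLF and SP letters in 4.76%. A match to such letters does not show binding by a factor.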

How the data were processed

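ATAC-seq libraries of NMuMG cells were made from 2 biological replicates per condition. Reads had been aligned to mm9 and handled by the authors with the ATAC-seq pipeline of ENCODE. Peaks came from MACS2 (version 2.1.2, per the submitters' processing notes) and were kept where the irreproducible discovery rate found them in both replicates. The deposited files are 1 list of peak coordinates per condition. In the vehicle list, a deposited score per peak, of unstated scale, was used within that list alone. In the 12 h list that column rises by 1 with each line from 1001 on, so it numbers the lines and was not used.

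Groups were taken from the sample labels. Distinct peaks of 150 bp or more were merged within a list across gaps under 1000 bp. Regions were shared at an overlap of 1 bp. Start sites were the 86879 distinct transcript starts of GENCODE vM1 on NCBIM37 (mm9), and gene lists used its 22342 protein-coding genes. A region away from start sites was assigned to the nearest protein-coding start within 100 kb. Where text names a midpoint feature, start sites took precedence over coding, untranslated and other exons, introns and the space between genes. Motifs were exact matches of 11 letter strings on both strands, and other DNA sequences were read from the same assembly. No test was run, since each condition is 1 list. Overlap, merging and distance steps were tested on simulated intervals. Analyses used Python 3.11.15, numpy 2.4.6, pandas 2.3.3, scipy 1.17.1 and pysam 0.24.0.

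The compared lists, the gene lists and the alternatives were chosen with earlier results of these data known. The genes named were those of each of the 19 lists with start sites in 1 list only and up to 3 with the most assigned 12 h-only regions, then the 10 genes with the most 12 h-only and the 5 with the most vehicle-only regions over all genes. Regions named were the 5 widest of each kind and the 3 matched pairs with the greatest gain and loss of width. Other members of the lists are named as examples chosen after their values were seen. Some genes that meet these rules are not reported here. Sequences are stretches around matches in regions named by these rules. The alternatives tried were other merging gaps, width minimums, overlaps, start site margins, distance limits and motif windows, autosomes alone, and a 12 h list shortened to its widest 18337 peaks. The 2 h TGFβ list was used only to count the regions of the series.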

Additional observations from a re-analysis of the deposited data

How the results depend on the processing

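Of 94 values recomputed under alternatives, 49 stayed within the 95% interval of the value reported or, for counts, within 1.5 times of it, 45 moved and 0 reversed. Among counts within 1.5 times were 20954 12 h-only regions at a reciprocal overlap of 50%, and 1888 genes with start sites in the 12 h list alone and 5557 with an assigned 12 h-only region at a margin of 5000 bp. The length of the 12 h list moved the most values. With that list shortened to its widest 18337 peaks it held 17955 regions, 71.6% of vehicle regions had a 12 h region, 5965 regions or 33.2% were 12 h-only and 4754 were vehicle-only. Shares at start sites were then 66.9% for shared, 18.1% for 12 h-only and 19.4% for vehicle-only regions, the AP-1 shares 55.8, 58.2 and 37.2%, and 850 genes had start sites in the 12 h list alone and 2881 an assigned 12 h-only region. At a reciprocal overlap of 50%, 72.3% of vehicle regions had a 12 h region, 4640 had none and 63.3% of 12 h regions were 12 h-only. The 12 h-only share was 55.5% with no merging, 54.5% with gaps under 500 bp merged, 53.0% with wider gaps merged (under 2 kb) and 54.5% at a minimum width of 300 bp. The share of vehicle regions with a 12 h region was 92.7% at 300 bp and 91.9% where regions within 1000 bp counted as shared. Start site shares of 12 h-only and vehicle-only regions were 13.6 and 13.7% with no merging. For shared, 12 h-only and vehicle-only regions they were 56.6, 9.64 and 8.53% at a margin of 500 bp, 65.3, 25.7 and 29.9% at 5000 bp, and 54.7, 8.48 and 7.77% at protein-coding transcripts alone. AP-1 shares were 31.7, 36.0 and 12.9% in windows of 200 bp. Over whole regions they were 58.6% for shared and 54.1% for 12 h-only regions, so the order of these classes depends on the window.

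No paired analysis was possible because the lists join both replicates and hold no value per replicate, and for the same reason none was left out in turn. Read totals per library were not analysed here, and their part in the length of the lists was not tested. A region that is 12 h-only was not called in vehicle, which does not show that it had no signal there.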
